A study of Mus musculus with 18 samples.

Results

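Nxpe2, Slc6a20a, Snx22, Svip, Fsd1l and the long noncoding RNA Gm16793 were examined in spleen erythroblasts of mice with 5 Klf1 genotypes. These 6 of the 23365 genes in the deposited count table were picked because each was lower in D45/KO erythroblasts than in every other genotype, so their low level in D45/KO is how they were chosen and is described here without a test. All 6 passed the filter on low counts that left 13405 genes. Every one of them had reads in all 14 libraries of the other genotypes.

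KLF1 is an erythroid zinc finger transcription factor that binds CACCC-type boxes and switches on many genes of the maturing red cell. The erythroblast is the nucleated precursor that takes up iron, makes globin and builds the red cell membrane before it loses its nucleus. The 6 genes do not form a known pathway. Slc6a20a encodes a membrane transporter of imino acids such as proline, Snx22 a sorting nexin that carries the phosphoinositide-binding PX domain, and Svip a small protein that binds the ATPase p97 and restrains the degradation of proteins from the endoplasmic reticulum. Nxpe2 belongs to the neurexophilin and PC-esterase domain family, Fsd1l encodes a protein with fibronectin type III and SPRY domains, and Gm16793 is a noncoding RNA without a function that could be stated here.

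The groups were 4 libraries of D45/KO (1 MommeD45 allele, a missense change in the linker-2 segment between zinc fingers, and 1 knockout allele of Klf1), 3 of D45/D45 (missense on both alleles), 3 of WT/D45, 5 of WT/KO and 3 of WT/WT, which carries wild-type alleles only. All were sorted from spleen as CD71 and TER119 positive cells, and the series design describes the replicates as biological. That design also describes haemolytic anaemia with an enlarged spleen in compound heterozygotes, here D45/KO, so an effect of the alleles within these cells and one of the anaemia cannot be told apart. The sources used here do not give age, sex or strain, nor what the KO allele deletes from Klf1.

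Library totals ran from 9.36 to 56.3 M counts (M stands for 1000000). Slc4a1, the band 3 anion exchanger of red cells, was at 5285 CPM or more in all 18 libraries (CPM, counts per 1000000 over library sizes adjusted by the TMM method), and the transferrin receptor Tfrc, which is CD71, at 711 CPM or more. Erythroid genes spread widely between libraries, with Slc4a1 up to 35627 CPM, Alas2 at 2806 to 57198 CPM and Hbb-b1 at 13994 to 639423 CPM. The alpha-globin rows Hba-a1 and Hba-a2 reached at most 0.816 and 0.1005 CPM in any library, and the cause was not tested. Ptprc, a leukocyte gene, was at 2.29 to 371 CPM. Transcripts of B cells split the libraries. The mean log2 CPM of 13 B cell markers was 3.61 to 7.10 in 9 libraries, called B-high below, and -2.96 to -1.37 in the other 9, called B-low. B-high libraries made up 3 of 4 D45/KO, 1 of 3 D45/D45, 1 of 3 WT/D45, 3 of 5 WT/KO and 1 of 3 WT/WT libraries. Klf1 itself lay between 282 and 763 CPM in D45/KO, 709.5 and 1576 CPM in D45/D45, 551 and 1295 CPM in WT/D45, 158 and 834 CPM in WT/KO and 452 and 1047 CPM in WT/WT. Its log2 fold change in WT/KO against WT/WT was -0.99 ± 0.56 (SE, edgeR adjusted p = 0.818), so the level of Klf1 gives little check of the genotype labels.

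The promoters of Nxpe2, Snx22 and Slc6a20a, which lie on chromosome 9, are shown because KLF1 binds CACCC-type boxes and because these 3 had the lowest D45/KO means relative to WT/WT among the 5 protein-coding genes. Each window runs from 250 bases before to 50 bases after a RefSeq transcription start (build GRCm38.p6, minus strand for all 3, read 5′ to 3′), and capitals mark CCNCNCCC or its reverse complement.
Nxpe2, chr9:48340849-48341148: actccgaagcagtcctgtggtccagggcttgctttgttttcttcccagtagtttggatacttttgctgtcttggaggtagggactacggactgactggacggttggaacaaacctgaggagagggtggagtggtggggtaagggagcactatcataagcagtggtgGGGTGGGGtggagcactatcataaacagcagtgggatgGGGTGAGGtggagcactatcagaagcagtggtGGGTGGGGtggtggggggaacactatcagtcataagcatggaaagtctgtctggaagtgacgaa
Snx22, chr9:66069710-66070009: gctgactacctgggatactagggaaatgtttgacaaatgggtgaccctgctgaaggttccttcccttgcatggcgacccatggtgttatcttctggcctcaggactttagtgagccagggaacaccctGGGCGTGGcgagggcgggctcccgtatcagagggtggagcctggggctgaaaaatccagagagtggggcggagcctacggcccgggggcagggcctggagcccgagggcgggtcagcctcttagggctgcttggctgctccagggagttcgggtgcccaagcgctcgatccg
Slc6a20a, chr9:123678783-123679082: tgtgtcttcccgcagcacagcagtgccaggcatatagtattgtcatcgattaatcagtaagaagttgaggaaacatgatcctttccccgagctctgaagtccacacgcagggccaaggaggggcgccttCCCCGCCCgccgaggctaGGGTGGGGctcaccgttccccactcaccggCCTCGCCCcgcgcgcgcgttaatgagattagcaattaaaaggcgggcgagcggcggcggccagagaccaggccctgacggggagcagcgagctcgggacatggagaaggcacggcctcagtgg
The Nxpe2 window held 3 matches, the Snx22 window 1 and the Slc6a20a window 3. RefSeq windows were at hand for 5 of the 6 genes (8 windows, since some genes have several starts), and all 5 held a CCNCNCCC match. Among all 32851 RefSeq windows of the same length, 49.5% held it on either strand. The stricter CCACACCC, which is contained in the looser motif, was in 0 of the 8 windows and in 3.56% of all windows. A GATA hexamer (AGATAA or AGATAG or TGATAA or TGATAG, on either strand) was found in 2 of the 5 genes, Nxpe2 with 4 matches and Snx22 with 1, and in 29.8% of all windows. An E-box (CANNTG) was found in 3 of the 5 genes and in 72.3% of all windows. These matches describe letters in the windows and no binding was measured.

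Slc6a20a, the imino acid transporter, was at 1.06, 1.34, 0.522 and 2.34 CPM in the D45/KO libraries. It was at 3.72, 9.36 and 7.31 CPM in D45/D45, at 14.3, 24.1 and 27.6 CPM in WT/D45 and at 7.48, 6.70, 5.44, 21.9 and 26.5 CPM in WT/KO. In WT/WT it was at 23.1, 30.8 and 25.4 CPM. The highest D45/KO library was below the lowest D45/D45 library, and D45/D45 did not overlap with WT/WT. The log2 fold change of D45/KO was -4.31 ± 0.63 (SE) against WT/WT and -2.35 ± 0.59 against D45/D45. Since the samples are bulk RNA, fewer cells that express a gene and less of its RNA per cell cannot be told apart, here or for the genes that follow. Its neighbour and paralog Slc6a20b had at most 10 counts in any library.

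Snx22, the sorting nexin, had the lowest D45/KO mean of the 5 protein-coding genes relative to WT/WT, at 2.70%. Its level was 4.82, 4.54, 4.87 and 6.63 CPM in D45/KO, 23.0, 59.7 and 52.2 CPM in D45/D45, 53.8, 246 and 192 CPM in WT/D45, 33.1, 32.7, 16.8, 114 and 183 CPM in WT/KO and 121, 258 and 200.1 CPM in WT/WT. Within WT/KO the 3 B-high WT/KO libraries, at 33.1 CPM or less, lay far below the 2 B-low ones. The log2 fold change of D45/KO was -5.21 ± 0.75 (SE) against WT/WT and -3.11 ± 0.69 against D45/D45.

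Svip, the p97-binding inhibitor of endoplasmic reticulum-associated degradation, was at 3.41, 7.04, 4.0 and 4.82 CPM in D45/KO. It was at 13.3, 20.003 and 24.9 CPM in D45/D45, 25.8, 33.6 and 38.0 CPM in WT/D45, 17.6, 11.4, 12.98, 30.5 and 30.002 CPM in WT/KO and 31.3, 49.1 and 28.7 CPM in WT/WT. Among the 6 genes it kept the largest share of its WT/WT mean in D45/KO, 13.2%, and the log2 fold change was -2.91 ± 0.41 (SE) against WT/WT and -2.01 ± 0.40 against D45/D45.

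Nxpe2 was the most abundant of the 6 by exon length, at 94.0 CPM per kb of exon in WT/WT against 66.8 for Snx22, 10.2 for Svip, 6.48 for Slc6a20a, 4.57 for Gm16793 and 1.32 for Fsd1l (exon lengths from GENCODE M21, made for a later build than the mm9 of the deposited counts). The Nxpe2 level was 10.98, 8.69, 15.7 and 17.6 CPM in D45/KO, 98.4, 155 and 132 CPM in D45/D45, 183, 322 and 522 CPM in WT/D45, 118, 85.4, 73.6, 420.4 and 465 CPM in WT/KO and 248, 479 and 430.1 CPM in WT/WT. Every D45/KO library was thus below 18 CPM, and the lowest library of any other genotype was a WT/KO library at 73.6 CPM. The log2 fold change of D45/KO was -4.86 ± 0.65 (SE) against WT/WT and -3.28 ± 0.61 against D45/D45.

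Fsd1l, of the fibronectin type III and SPRY domain genes, was at 0.793, 1.83, 1.74 and 1.5 CPM in D45/KO. It was at 3.61, 4.14 and 5.22 CPM in D45/D45, 6.96, 20.8 and 14.7 CPM in WT/D45, 6.48, 6.63, 4.98, 18.7 and 9.51 CPM in WT/KO and 12.2, 17.1 and 9.32 CPM in WT/WT. The step between D45/KO and D45/D45 was the smallest of the 6 genes, with a log2 fold change of -1.57 ± 0.51 (SE), and against WT/WT it was -3.14 ± 0.53.

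Gm16793 was all but undetected in D45/KO, with 2 counts in replicate 1 and 0 in the other 3 libraries. In CPM it was at 0.0311, 0, 0 and 0 in D45/KO, 1.55, 4.79 and 2.92 in D45/D45, 3.91, 8.33 and 13.4 in WT/D45, 3.33, 1.62, 5.44, 8.40 and 9.21 in WT/KO and 6.54, 4.59 and 11.9 in WT/WT. With so few counts the fitted fold change depends on the prior count, so pooled rates are given. The pooled rate in D45/D45 (221 counts) was 186 times that in D45/KO, with a 95% exact interval of 50.9 to 1546 that covers counting error only. The pooled rate in WT/D45 (817 counts) was 455 times that in D45/KO (interval 126 to 3765).

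**Figure D1:**
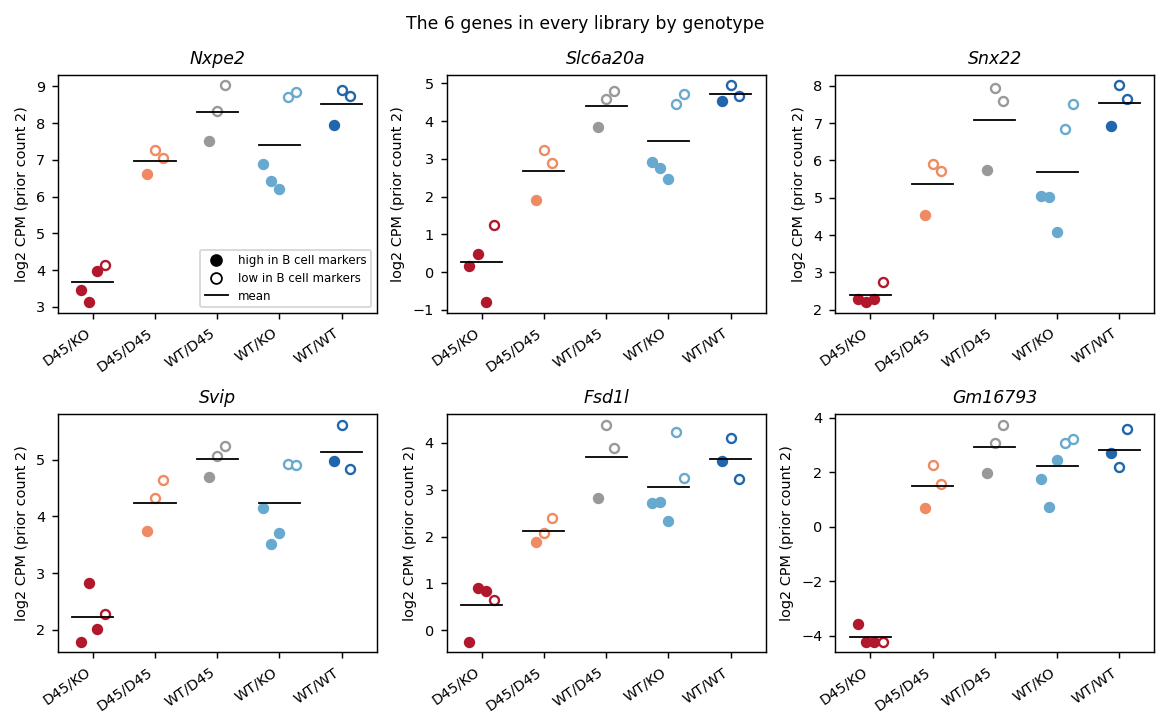
Log2 CPM (prior count 2, y axis) of the 6 genes in each of the 18 libraries, grouped by genotype (x axis), with filled points for libraries high in B cell markers, open points for libraries low in them and a line at the mean. The 4 D45/KO libraries lie below all 14 others in each panel, and within WT/KO the 3 filled points lie below the 2 open ones in each panel.

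All 4 D45/KO libraries were below all 14 others for 6 of 6 genes. The rule chose them on these libraries, and over all tested genes 0.269% (36 genes) had the same arrangement, while 18.9% had their lowest mean in D45/KO. By edgeR 0.00746% of tested genes were called in D45/KO against D45/D45, 0.172% against WT/D45 and against WT/KO (0.0597% lower and 0.112% higher in D45/KO), and 0.619% against WT/WT (0.358% lower and 0.261% higher), numbers from which nothing is read for genes chosen on these contrasts. The gap between the lowest other library and the highest D45/KO library, in log2 CPM with a prior count of 2, was 4.23 for Gm16793, 2.06 for Nxpe2, 1.34 for Snx22, 0.96 for Fsd1l, 0.69 for Svip and 0.66 for Slc6a20a. Outside the 6, the widest gaps were 2.69 for Cacna1g, a T-type calcium channel subunit, 1.42 for Slc1a5, a neutral amino acid transporter, 0.89 for Tac2, a tachykinin precursor, 0.66 for Limd1, a LIM domain protein, and 0.55 for Cd36, a fatty acid receptor. Tac2 averaged 1.72 CPM in D45/KO, 5.21 in D45/D45, 19.6 in WT/D45, 10.6 in WT/KO and 21.4 in WT/WT. Limd1, with 46.7 CPM in D45/KO, 99.2 in D45/D45 and 194 in WT/WT, differed less in fold.

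**Figure D2:**
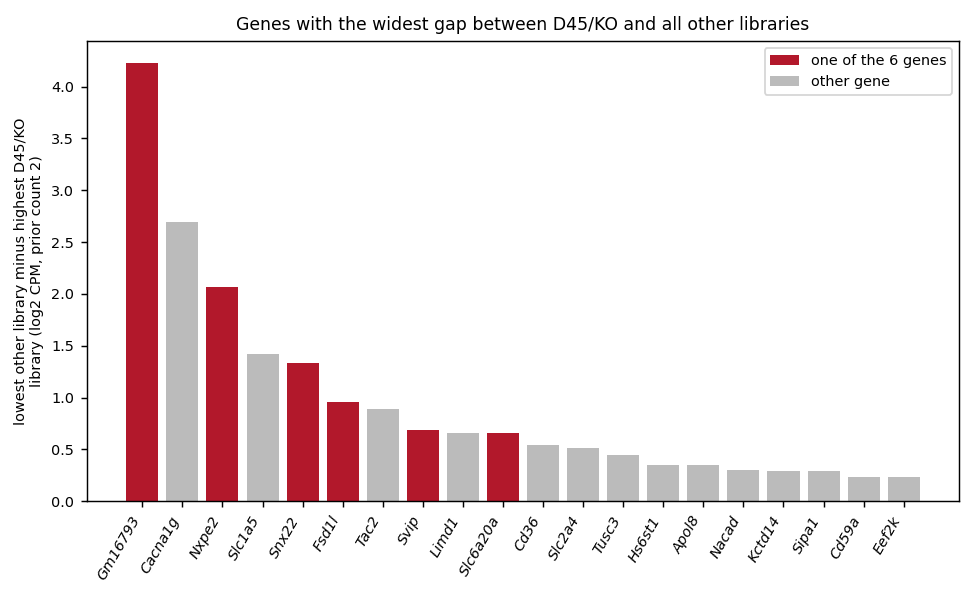
Gap between D45/KO and all other libraries (y axis, log2 CPM of the lowest of the 14 other libraries minus that of the highest D45/KO library, prior count 2) for the 20 tested genes with the widest gaps (x axis), with bars of the 6 genes in red. Gm16793 leads at 4.23, Cacna1g follows at 2.69, and the 6 genes are mixed with others down to Slc6a20a at 0.66.

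Among the genotypes the rule set against D45/KO, the 6 genes still varied. D45/D45 had the lowest mean of the other 4 genotypes for 6 of 6 genes, where 32.1% of tested genes had D45/D45 lowest. In 6 of 6 the WT/KO mean came next and the means of WT/D45 and WT/WT were above both, an order found in 4.99% of tested genes. It was not particular to the 6. Cacna1g, Slc1a5, Tac2, Limd1 and Cd36, the genes with the widest gaps outside the 6, had this order too. As a share of the WT/WT mean, D45/D45 was at 33.3% for Nxpe2, 25.7% for Slc6a20a, 23.3% for Snx22, 53.4% for Svip, 33.6% for Fsd1l and 40.2% for Gm16793. WT/KO was at 39.3% (Snx22) to 73.0% (Gm16793) of it, and WT/D45 at 83.1% (Slc6a20a) to 112% (Gm16793). Neighbours in this order other than D45/D45 and D45/KO overlapped in their libraries for every one of the 6 genes. WT/KO was B-high in 3 of 5 libraries, and D45/D45, WT/D45 and WT/WT in 1 of 3 each. Among B-low libraries Slc6a20a, Snx22 and Svip kept this order. WT/KO was there above WT/D45 for Nxpe2 (442.5 against 422.3 CPM). It was above WT/WT for Fsd1l (14.1 against 13.2 CPM) and Gm16793 (8.81 against 8.24 CPM). Among B-high libraries Nxpe2 was lower in WT/KO (92.3 CPM) than in D45/D45 (98.4 CPM), and the other genes kept this order.

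**Figure D3:**
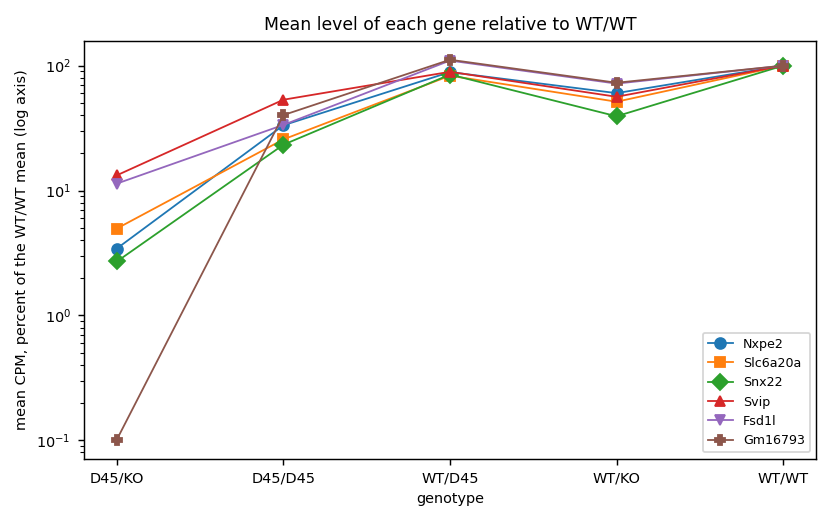
Mean CPM of each gene as a percent of its WT/WT mean (y axis, log scale) in the 5 genotypes (x axis), with a line joining the means of a gene. D45/KO lies between 0.101% (Gm16793) and 13.2% (Svip), D45/D45 between 23.3% and 53.4%, WT/KO between 39.3% and 73.0% and WT/D45 between 83.1% and 112%. Each mean pools B-high and B-low libraries, whose mix differs between genotypes.

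D45/D45 was tested against WT/WT to ask whether missense alleles on both copies lower these genes, a contrast with no D45/KO library. The rule did use both groups, each set against D45/KO, so this contrast is not fully independent of the choice. The log2 fold changes were -2.10 ± 0.74 (SE) for Snx22, -1.96 ± 0.64 for Slc6a20a, -1.59 ± 0.64 for Nxpe2, -1.58 ± 0.55 for Fsd1l, -1.32 ± 0.80 for Gm16793 and -0.91 ± 0.43 for Svip. All 6 were below 0, as were 49.1% of tested genes, and the median was -1.58 against 0.01 over all genes. The 6 genes followed one another over the 14 libraries without D45/KO. Their pairwise Pearson r of log2 CPM ran from 0.65 (Fsd1l with Gm16793) to 0.95 (Slc6a20a with Snx22). Counts out of 6, here and elsewhere, are therefore not 6 independent results. With p-values adjusted by Benjamini-Hochberg over the whole table and a threshold of 0.05, edgeR's quasi-likelihood test called 0% of tested genes, and the adjusted p was 1 for each of the 6. At an unadjusted p under 0.05 edgeR had 5 of the 6, against 4.07% of tested genes, and DESeq2 had all 6, against 5.5%. After adjustment DESeq2 called Slc6a20a alone (adjusted p = 0.0217, 0.515% of tested genes called). Replicate numbers in the labels do not say what they share, but same-numbered libraries of D45/D45, WT/D45 and WT/WT deviated together. With the number as a block in a fit of these 9 libraries, an alternative added after the data were seen, Snx22 (-2.24 ± 0.23, SE, edgeR adjusted p = 0.0024), Nxpe2 (-1.62 ± 0.23, adjusted p = 0.0116) and Slc6a20a (-2.13 ± 0.31, adjusted p = 0.0126) were lower in D45/D45 and passed, where 0.616% of tested genes were called. Svip, Fsd1l and Gm16793 did not pass (adjusted p = 0.137, 0.156 and 0.411). The same 9 libraries without the block gave 0 calls among the 6 and 0.00833% over all genes, and the block in the fit of all 18 libraries gave 0 and 0.0746%. Replicate 1 is the B-high library in each of the 3 genotypes, so the block and the B cell split cannot be fully told apart. For 5 of the 6 genes every D45/D45 library was below every WT/WT library, an arrangement of 3.65% of tested genes, and the exception was Gm16793.

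With the B cell marker level added to the edgeR fit, Snx22, Slc6a20a and Nxpe2 were lower in D45/D45 and passed the test. Snx22 had -2.27 ± 0.34 (SE, adjusted p = 0.0059), Slc6a20a -2.18 ± 0.39 (adjusted p = 0.0144) and Nxpe2 -1.60 ± 0.32 (adjusted p = 0.0317), where 0.38% of tested genes were called. Fsd1l (-1.63 ± 0.45), Gm16793 (-1.54 ± 0.62) and Svip (-0.97 ± 0.33) did not pass, with adjusted p-values of 0.142, 0.369 and 0.285. In the 9 B-low libraries alone, with 2 D45/D45 and 2 WT/WT libraries, edgeR called the same 3 genes (1.36% of tested genes called), with Snx22 at -2.10 ± 0.29 and Nxpe2 at -1.73 ± 0.28. For 5 of the 6 genes both B-low D45/D45 libraries were below all 6 B-low libraries of WT/D45, WT/KO and WT/WT, as in 3.49% of tested genes. Gm16793 was again the exception, with 4.79 CPM in a D45/D45 and 4.59 CPM in a WT/WT library.

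WT/KO against WT/WT asks what a single null allele does beside a wild-type one. The log2 fold changes were -1.35 ± 0.62 (SE) for Snx22, -0.96 ± 0.54 for Slc6a20a, -0.83 ± 0.37 for Svip, -0.73 ± 0.55 for Nxpe2, -0.48 ± 0.48 for Fsd1l and -0.45 ± 0.70 for Gm16793. All 6 were below 0, as were 37.8% of tested genes, with a median of -0.78 against 0.26 over all genes. None passed edgeR's test (0% of tested genes called, lowest adjusted p = 0.818) or DESeq2's, and edgeR had 2 of the 6, Snx22 and Svip, at an unadjusted p under 0.05, against 4.27% of tested genes. DESeq2 had 3 of the 6 at that level, against 8% of tested genes, and called 0 (0.142% of tested genes called). In none of the 6 was every WT/KO library below every WT/WT library (0.627% of tested genes). Among the 6 there were also 0 calls with the B cell marker level in the fit (0.0298% of tested genes called) and in the B-low libraries alone (0.168%). The B cell marker level moved with these values, since 3 of 5 WT/KO and 1 of 3 WT/WT libraries were B-high and all 3 B-high WT/KO libraries were below both B-low ones for 6 of 6 genes. In the B-low libraries alone, Nxpe2 averaged 443 CPM in WT/KO and 454 CPM in WT/WT, and the log2 fold changes came to -0.10 ± 0.27 for Nxpe2, -0.28 ± 0.38 for Slc6a20a, -0.69 ± 0.27 for Snx22, -0.43 ± 0.35 for Svip, 0.02 ± 0.54 for Fsd1l and 0.07 ± 0.66 for Gm16793. The replicate block in the fit of all 18 libraries moved them the other way, to -1.77 ± 0.41 for Nxpe2, -1.92 ± 0.40 for Slc6a20a, -2.48 ± 0.47 for Snx22 and -1.18 ± 0.37 for Svip, with 0 calls and a lowest adjusted p of 0.112 (Snx22). Same-numbered WT/KO and WT/WT libraries did not all deviate together. WT/KO replicates 2 and 3 are B-high, and WT/WT replicates 2 and 3 are B-low. The B-low WT/KO replicates 4 and 5 have no WT/WT library of the same number. The block thus sets B-high against B-low libraries, and its values cannot be told apart from the B cell split. With the B cell marker level in the fit the values were -0.67 ± 0.28 for Nxpe2, -0.93 ± 0.32 for Slc6a20a and -1.28 ± 0.29 for Snx22. In the authors' deposited table, WT/WT over WT/KO had log2 fold changes of 0.78 for Fsd1l to 1.86 for Snx22, higher in WT/WT for all 6, and the authors' deposited adjusted p-value was 0.853 for each. The authors' deposited unadjusted p-values were 0.0048 for Slc6a20a, 0.0118 for Svip, 0.0122 for Snx22, 0.0475 for Fsd1l, 0.0682 for Nxpe2 and 0.121 for Gm16793. The share of all genes under 0.05 there is not given here.

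WT/D45 against WT/WT asks the same of a single missense allele. The log2 fold changes lay between -0.27 ± 0.62 (SE, Slc6a20a) and 0.16 ± 0.79 (Gm16793), with 4 of 6 below 0 against 41.6% of tested genes. None of the 6 passed edgeR's or DESeq2's test, 0 had an unadjusted p under 0.05 in either tool (1.45% of tested genes in edgeR and 2.24% in DESeq2), both tools called 0% of all tested genes, and the edgeR adjusted p was 1 for each. In none of the 6 was every WT/D45 library below every WT/WT library, as in 1.19% of tested genes. The B-low libraries alone gave 0 calls among the 6 and 0.0219% over all genes, and the block over the 9 libraries of the 3 genotypes 0 and 0.00833%. At 3 libraries a group, an SE of 0.42 to 0.79 leaves room for differences that this contrast could not show. A test over D45/D45, WT/D45, WT/KO and WT/WT together with 3 degrees of freedom had edgeR adjusted p-values of 0.967 for all 6 genes, with 3 of 6 at an unadjusted p under 0.05 (Snx22, Slc6a20a and Fsd1l) against 2.93% of tested genes, and DESeq2 had 5 of 6 at that level, against 6.99%, and called 0 (0.358% of tested genes). With the B cell marker level in the fit Snx22 passed (0.209% of tested genes called), in the B-low libraries alone Nxpe2 and Snx22 did (0.787%), and with a replicate block 0 did (0.0298%).

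**Figure D4:**
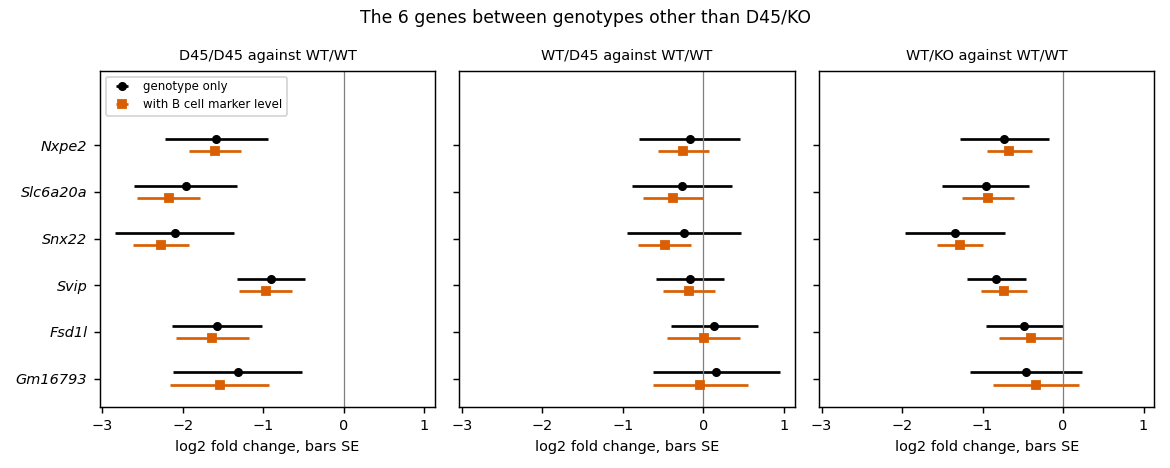
Log2 fold change (x axis, bars SE) of the 6 genes (y axis) in D45/D45, WT/D45 and WT/KO, each against WT/WT, from the edgeR fit with genotype only (black circles) and with the B cell marker level added (orange squares). All 6 genes lie left of 0 in D45/D45 and in WT/KO. In WT/D45 they lie between -0.27 (Slc6a20a) and 0.16 (Gm16793) with genotype only. With the B cell marker level they lie between -0.48 (Snx22) and 0.0015 (Fsd1l) there.

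Since all 4 D45/KO libraries were below all others by choice of the genes, the same holds by construction within B-high and within B-low libraries, and only the sizes are given. Nxpe2 was at 8.69 to 15.7 CPM in the B-high D45/KO libraries against a median of 108 CPM in the other B-high libraries, and at 17.6 CPM in the B-low D45/KO library against a median of 425 CPM in the other B-low ones. For Svip the B-high values were 3.41 to 7.04 CPM in D45/KO against a median of 15.5 CPM, and the B-low values 4.82 CPM in D45/KO against a median of 30.3 CPM.

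Markers of other cells were summed by list, and their part in the levels of the 6 genes was not tested. Summed over the list, 13 B cell markers were at 2.91 to 849 CPM in D45/KO, 3.99 to 2236 CPM in WT/KO and 9.03 to 1285 CPM in WT/WT, and 12 T and NK cell markers at 7.64 to 38.0 CPM in D45/KO, 14.2 to 109.6 CPM in WT/KO and 31.0 to 45.4 CPM in WT/WT. For 12 neutrophil markers the sums were 23.9 to 229 CPM in D45/KO, 5.14 to 58.7 CPM in WT/KO and 127 to 289 CPM in WT/WT, and for 12 macrophage and monocyte markers 137 to 3456 CPM in D45/KO, 175 to 3349 CPM in WT/KO and 312 to 842 CPM in WT/WT. In these 4 lists every marker with a row had counts in all 3 genotypes. Against WT/KO the fold change of D45/KO was above 0 for 0 of 13 B cell markers (median log2 fold change -1.85), 0 of 12 T and NK cell markers (median -1.92), 8 of 12 neutrophil markers (median 1.70) and 3 of 12 macrophage and monocyte markers (median -0.11). Against WT/WT it was above 0 for 1, 5, 4 and 10 markers of these lists, with medians of -0.22, -0.17, -1.21 and 1.34. The 10 megakaryocyte and platelet markers summed to 429.7 to 818 CPM in D45/KO, 215 to 619 CPM in D45/D45, 47.2 to 173 CPM in WT/D45, 59.2 to 264 CPM in WT/KO and 37.3 to 207 CPM in WT/WT, with Treml1 at 0 counts in D45/KO, D45/D45 and WT/WT and Gp6 in WT/D45. For erythroid stage, 9 early progenitor markers summed to 5.37 to 13.4 CPM in D45/KO, 5.59 to 53.5 CPM in WT/KO and 7.21 to 30.9 CPM in WT/WT, with Hoxa9 at 0 counts in D45/KO and D45/D45. The 10 terminal maturation markers summed to 13858 to 29185 CPM in D45/KO, within the 6848 to 54072 CPM of WT/KO and the 8076 to 67406 CPM of WT/WT, with none at 0. Of the tested markers 4 of 8 megakaryocyte, 1 of 8 early progenitor and 5 of 10 terminal ones had a fold change above 0 against WT/KO, and 5, 2 and 3 against WT/WT. The medians of these lists were -0.22, -1.01 and -0.0009 against WT/KO, and 0.71, -0.70 and -0.66 against WT/WT. The higher megakaryocyte sums in D45/KO were thus not shared by most markers of that list against WT/KO. In D45/KO against WT/WT the T and NK list held 1 called gene, Lck, at -1.43 ± 0.31 (SE, edgeR adjusted p = 0.0454), named after its value was seen. The other lists held 0 called genes against WT/WT, and all 7 held 0 against WT/KO.

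Svip lies on chromosome 7, Fsd1l on chromosome 4 and Gm16793 on chromosome 8, as does Klf1. Gm16793 lies on the opposite strand to Mfhas1, a leucine-rich repeat protein of the ROCO family, and GENCODE M21 classes it as a lncRNA of a bidirectional promoter. Mfhas1, looked at for its position, was low in D45/KO too, at 2.30, 8.82, 2.96 and 0.404 CPM. It was at 12.3, 6.72 and 6.05 CPM in D45/D45, 32.7, 43.6 and 56.6 CPM in WT/D45, 32.3, 22.1, 51.1, 20.7 and 31.0 CPM in WT/KO and 55.9, 54.2 and 38.3 CPM in WT/WT. Mfhas1 overlapped between D45/KO and D45/D45 over all their libraries. Gm16793 did not, but it was picked for being lower in D45/KO, so no difference between the pair is read from this. Among B-high libraries Mfhas1 was at 2.30 to 8.82 CPM in D45/KO and 12.3 CPM in D45/D45. Among B-low ones it was at 0.404 CPM in D45/KO and at 6.72 and 6.05 CPM in D45/D45. Mfhas1 fell in D45/KO against WT/WT, with a log2 fold change of -3.77 ± 0.66 (SE, edgeR adjusted p = 0.0136), and against WT/D45, with -3.61 ± 0.66 (adjusted p = 0.0271). Against WT/KO it was at -3.11 ± 0.61 (adjusted p = 0.0530), and alternatives fell on both sides of the threshold. DESeq2 (adjusted p = 4e-05) and edgeR with the B cell covariate (0.0017) were under it, and the highest was 0.296 in edgeR without D45/KO replicate 3. Against D45/D45 Mfhas1 was at -1.21 ± 0.62 (adjusted p = 1), and alternatives ran from -3.91 to -0.81. The lowest was in the B-low libraries alone, which hold 1 D45/KO library. Without D45/KO replicate 2, the library at 8.82 CPM, the value was -2.17. Without D45/KO replicate 1, D45/KO replicate 3 or WT/WT replicate 2 the adjusted p against WT/WT was 0.0702, 0.0715 and 0.0568, and the call against WT/D45 was lost without D45/KO replicate 1 or 3 or WT/D45 replicate 2 or 3 (adjusted p = 0.107 to 0.194). In D45/D45 against WT/WT, Mfhas1 had -2.56 ± 0.70 (adjusted p = 0.682), and 3 of 15 alternatives were under the threshold, DESeq2 (-2.66, adjusted p = 0.0443), the B-low libraries alone (-2.93 ± 0.37, adjusted p = 0.00019) and the replicate block over 9 libraries (-2.65 ± 0.33, adjusted p = 0.0072). The pair shares 135 of the 1680 exon bases of Gm16793 in GENCODE M21. The sources used here do not say whether counting used strand, so reads of the pair from that stretch cannot be told apart.

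**Figure D5:**
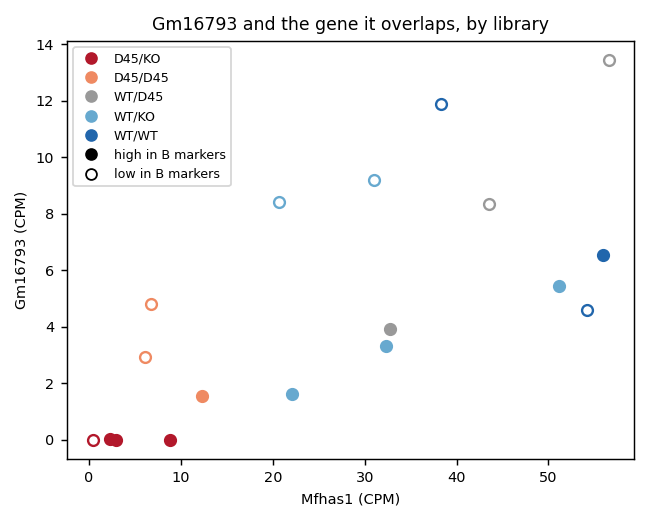
Gm16793 (y axis, CPM) against Mfhas1 (x axis, CPM) in the 18 libraries, coloured by genotype and filled where B cell markers are high. D45/KO libraries lie at 0 or 0.0311 CPM of Gm16793 and up to 8.82 CPM of Mfhas1, D45/D45 libraries at 1.55 to 4.79 and 6.05 to 12.3 CPM, and the 11 libraries of WT/D45, WT/KO and WT/WT at 20.7 CPM of Mfhas1 or above.

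Of 15 overlapping or adjacent protein-coding neighbours with a row (by RefSeq gene order), 12 were tested, and edgeR called 1 (Mfhas1) in D45/KO against WT/WT, where it called 0.619% of tested genes, and 0 against WT/KO, where it called 0.172%. DESeq2 called 1, Mfhas1, in both comparisons, where it called 3.03% of tested genes against WT/WT and 1.38% against WT/KO. Nxpe4, a family member whose span overlaps Nxpe2 on the opposite strand with no shared exon base, was at 29.1 ± 9.34 CPM in D45/KO (SD, n = 4) and 26.4 ± 4.31 CPM in WT/WT (n = 3), with a log2 fold change of 0.14 ± 0.44 (SE, edgeR adjusted p = 0.999). Ppib, a cyclophilin of the endoplasmic reticulum that shares 825 of the 2891 exon bases of Snx22 on the opposite strand, had -0.17 ± 0.31 (adjusted p = 0.999). Since it is not known whether counting used strand, reads of Snx22 and Ppib from that stretch cannot be told apart either. Snx1, the sorting nexin on the other side of Snx22, had -0.55 ± 0.25 (adjusted p = 0.527).

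In the families of the 6 genes, no other gene passed edgeR's test in these comparisons. Of the 29 other sorting nexins, all tested, 0 were called in D45/KO against WT/KO or WT/WT, with medians of -0.29 and 0.15 on the log2 scale beside -0.15 and 0.07 over all genes. At an unadjusted p under 0.05 edgeR had 0 and 3 of them, beside 5.41% of all tested genes against WT/KO and 8.93% against WT/WT, and DESeq2 called 0 in both, beside 1.38% and 3.03%. Of 7 tested genes of the SLC6 transporter family, edgeR called 0 and had 1 in each comparison at an unadjusted p under 0.05. The gene DESeq2 called higher there was Slc6a3, the dopamine transporter, named after its value was seen, with means of 15.6 ± 6.14 CPM (SD, n = 4) for D45/KO and 1.56 ± 1.31 CPM (n = 5) for WT/KO, with edgeR log2 fold changes of 3.32 ± 1.003 (SE) against WT/KO and 3.28 ± 1.24 against WT/WT. Genes of proline and glycine handling (15 tested) and of endoplasmic reticulum-associated degradation with p97 (35 tested) had 0 called in both comparisons by either tool, with 2 and 2 of the proline and glycine genes and 1 and 2 of the degradation genes at an unadjusted p under 0.05. In the NXPE family, Nxpe3 had -1.41 ± 1.23 (SE) against WT/KO and -0.22 ± 1.35 against WT/WT, and Nxpe5 had 0.73 ± 1.12 and 0.88 ± 1.32. Fsd2, the tested relative of Fsd1l, had -0.45 ± 1.44 and 0.39 ± 1.66, and Fsd1 was below the count filter.

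By Pearson correlation of log2 CPM over the 18 libraries, given as a description of profiles that share library composition and depth, Slc1a5 was among the 2 most similar genes outside the 6 for 6 of 6. Its r was highest with Snx22 (0.98) and lowest with Fsd1l (0.91), out of 9020 genes compared, and without the D45/KO libraries it ran from 0.76 to 0.95. The other closest profiles outside the 6 were Slc2a4, the insulin-responsive glucose transporter, for Nxpe2 (r = 0.96), Tusc3, a subunit of the oligosaccharyltransferase of the endoplasmic reticulum, for Slc6a20a (0.96) and Svip (0.95), Kctd14 for Snx22 (0.97) and Cacna1g for Fsd1l (0.92) and Gm16793 (0.91). Mean Slc1a5 was 27.6 CPM in D45/KO, 190.5 in D45/D45, 415 in WT/D45, 239 in WT/KO and 495 in WT/WT.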

How the data were processed

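The authors deposited raw counts per gene symbol for 18 libraries, and a second table of 9918 genes with counts, CPM computed over the genes kept, log2 values of WT/WT relative to WT/KO and deposited p-values. HISAT2, featureCounts, limma and the build mm9 appear in the submitters' processing notes. Per the labels' protocols RNA was taken in Trizol and made into libraries with a Swift Rapid kit. The deposited raw counts entered edgeR 4.0.16 under R 4.3.3 (filterByExpr, TMM, quasi-likelihood fit of genotype to all 18 libraries, Benjamini-Hochberg adjustment over 13405 genes, called under 0.05). Each SE was derived from the size of the log2 fold change and its F statistic and is approximate. DESeq2 1.42.0 was an alternative. The edgeR fit was also run on simulated data, whose outcome is not given here and from which nothing is read. Depth was 9.36 to 56.3 M counts and TMM factors 0.366 to 1.93. Intervals cover counting error only. The 6 genes, the lists and the tests were chosen with earlier results of these data known. Named genes were the 6, Klf1, up to 2 closest profiles per gene and the 5 widest gaps outside the 6. Called genes of the family lists were to be named too, and genes of the NXPE and FSD1 families whatever they showed. Neighbours and Lck were chosen after the data were seen, neighbours by position. Coordinates of the deposited build are not given, and promoter windows are RefSeq GRCm38.p6. Same-numbered libraries of D45/D45, WT/D45 and WT/WT deviated together (correlation of deviations from the group means 0.119 to 0.772, each of the 9 pairs over 0.1). The numbers were used as a block for these 3 genotypes on that ground, and the labels give no pairing. Only same-numbered libraries were compared, and replicate 1 is the B-high library in each of the 3 genotypes. A pairing by number and the B cell split therefore cannot be told apart. Pairs with D45/KO or WT/KO libraries did not all pass 0.1.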

Additional observations from a re-analysis of the deposited data

Results flagged for a closer look

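Snx22 in D45/KO replicate 4 was at 6.63 CPM, far from the other 3 D45/KO libraries at 4.54 to 4.87 CPM, and this is the only B-low library of that genotype. Gm16793 in D45/KO replicate 1 was at 0.0311 CPM, from 2 counts, where the other 3 D45/KO libraries had 0. Both were marked by a gap test on the D45/KO and WT/KO libraries of the 6 genes, 12 sets of values in all, in which chance marks about 1 in 20 where values are not tied. The mark on Gm16793 was bound to appear, since the other 3 values were tied at 0.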

How the results depend on the processing

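Every D45/KO library was below every other for 6 of 6 genes with unadjusted library totals, and with DESeq2 size factors. In D45/KO contrasts 362 of 372 alternative fold changes stayed within 1 SD, none changed sign, and 10 moved, 8 of them for Gm16793. Over the whole table the genes with that arrangement numbered 43 to 63 without 1 D45/KO replicate. In D45/D45 against WT/WT, genes called of the 6 were 1 with DESeq2, 3 with the B cell covariate and, both added after the data were seen, 3 in the B-low libraries alone (1 D45/KO library, assumed to vary like the other groups) and 3 with the replicate block over the D45/D45, WT/D45 and WT/WT libraries, and over 4 genotypes 1 with the covariate and 2 in B-low libraries. Leaving out a replicate gave 0 to 0 in these tests. All genes called in D45/KO against WT/KO were 23, and 185 with DESeq2, 38 with DESeq2's size factors, 386 with the covariate, 46 in B-low libraries and 9 to 36 without a replicate. Against WT/WT they were 83, and 406, 126, 561, 322 and 19 to 121. The replicate block gave 128 and 209 genes. Over all 18 libraries same-numbered libraries correlated at -0.46 to 0.77, and the block there called 0 of the 6 in the tests without D45/KO. CCACACCC was in 0 of 5 promoters. Signs turned in WT/D45 against WT/WT without 1 replicate, where ranges were -0.61 to 0.13 (Nxpe2, also 0.01), -0.65 to 0.18 (Snx22, also 0.03), -0.31 to 0.11 (Svip), -0.25 to 0.46 (Fsd1l), -0.33 to 0.62 (Gm16793) and -0.38 to 0.016 (Mfhas1), with the block over 9 libraries (Fsd1l -0.011, Gm16793 -0.024), with the covariate (Gm16793, -0.039) and in B-low libraries (Mfhas1, 0.046). They turned in WT/KO against WT/WT in B-low libraries (Fsd1l 0.018, Gm16793 0.074) and without 1 replicate (Gm16793, -0.72 to 0.0031). The cause was not tested.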
